A study of Mus musculus with 8 samples.

Results

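A set of 10 SOX family genes other than Sox9 was followed in the pancreatic epithelium of mouse embryos in which Sox9 had been deleted. The set held Sox2, Sox4, Sox5, Sox6, Sox7, Sox11, Sox12, Sox13, Sox17 and Sox18, chosen by name. The array carried 25 probes for these 10 genes, out of 41174 probes with 27745 gene names in all. Further SOX genes, Sox10 among them, were outside this set and are given with the gene lists. The mutant group (MUT) held 4 arrays of Sox9fl/fl; Rosa26-CreER embryos, and the wild-type group (WT) held 4 arrays of Rosa26-CreER littermates without the floxed alleles, on a mixed background of FVB/N, C57Bl/6J and CD1. Both groups therefore carried the tamoxifen-inducible Cre and were exposed to tamoxifen, given to the dams at 6 mg per 40 g at e12.5, and all were dissected at e15.5 (days of embryonic development). Each array received 250 ng of RNA from a pool of 4 pancreata, dorsal and ventral epithelium together, so the spread between arrays is one between pools of embryos. Rosa26 is active in nearly all cell types, so the Cre is not specific to the epithelium, and recombination in each cell type was not measured here.

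SOX proteins bind the minor groove of DNA through a shared HMG domain and bend it, and they act with partner factors that differ between cell types. The SOXB1 group, here Sox2, keeps progenitors of the foregut, stomach and nervous system undifferentiated. The SOXC group (Sox4, Sox11, Sox12) consists of single-exon genes for transcriptional activators in neural, mesenchymal and epithelial progenitors, and Sox4 takes part in endocrine differentiation in the mouse pancreas. The SOXD group (Sox5, Sox6, Sox13) lacks an activation or repression domain of its own and works with partners, among them SOX9 in cartilage. The SOXF group (Sox7, Sox17, Sox18) is known for endothelial and lymphatic development, and Sox17 also for definitive endoderm and the choice between pancreas and bile duct.

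SOX proteins recognise short sequences around ACAAT or ACAAAG, so the promoters were read for these letters on both strands. RefSeq start sites (GRCm38.p6) were listed for 7 of the 10 genes, with 12 start sites in all, 6 of them of Sox6. The 250 bases before a start are shown for Sox2 and Sox11. The main probe of Sox2 had the smallest p of the chosen SOX genes tested, and the Sox11 probes disagreed along the gene. The Sox2 window lies at chr3:34649745-34649994 on the plus strand and the Sox11 window at chr12:27342719-27342968 on the minus strand, both written 5′ to 3′, and capitals mark ACAAAG.
Sox2: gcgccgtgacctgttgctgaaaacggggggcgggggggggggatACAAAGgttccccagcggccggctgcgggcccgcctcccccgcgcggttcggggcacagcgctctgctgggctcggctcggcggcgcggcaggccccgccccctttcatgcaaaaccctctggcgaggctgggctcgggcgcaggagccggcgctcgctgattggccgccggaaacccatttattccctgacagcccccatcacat
Sox11: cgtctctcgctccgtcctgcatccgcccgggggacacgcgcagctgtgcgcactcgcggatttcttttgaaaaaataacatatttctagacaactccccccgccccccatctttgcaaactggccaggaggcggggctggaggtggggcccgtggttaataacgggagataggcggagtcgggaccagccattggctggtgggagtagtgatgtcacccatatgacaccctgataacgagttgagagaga
The Sox2 window held ACAAAG once, and the Sox11 window held neither motif, as did the windows of Sox4, Sox12 and Sox13. Either motif occurred in 8 of the 12 windows, those of Sox2, Sox5 and all 6 of Sox6, against 38.8% of 32851 RefSeq promoter windows of the same length. ACAAT alone occurred in 4 of the 12 and in 27.7% of all windows, and ACAAAG in 6 of the 12 and in 16.5% of all. The Sox2 window was 72.0% G and C, and the Sox6 windows between 34.0% and 60.8%. A match of such short letters is a description and not a binding site, and the windows of Sox6 belong to a single gene.

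Sox9 itself checked the labels. Its brightest probe (A_52_P214630) averaged 0.42 ± 0.08 in MUT and 1.74 ± 0.07 in WT (SD, n = 4 each), where levels here and below are log2 of the processed signal minus that array's own 75th percentile of log2 signal. The difference was -1.32 on the log2 scale (SE 0.0674, limma adjusted p = 8.09e-04), so 40.2% of the WT signal of this probe remained. This probe was the brightest by its mean over all arrays. The probe A_52_P577484 was brighter in WT (2.01 ± 0.12, SD, n = 4). It fell by 2.50, so 17.7% of its WT signal remained. A_51_P451606 did not pass the threshold (difference 0.65, limma adjusted p = 0.338). Without MUT replicate 2 the 3 differences were -1.29, -2.58 and 0.24. The pools held other cells besides epithelium: all 20 endothelial and all 22 mesenchymal marker genes tested were above background, as were all 22 duct and trunk genes and all 15 acinar genes on the array. In such bulk RNA fewer cells of a type and less RNA per cell cannot be told apart. All MUT arrays lay on a slide of their own, scanned apart from the WT slide, so slide and genotype cannot be told apart. The array of MUT replicate 2 stood apart: its median signal was 756, against 237 to 272 on the other MUT arrays and 219 to 246 on the WT arrays, and 85.9% of its probes were well above background, against at most 73.4% on the other 7. Its median correlation with the other MUT arrays was 0.852, against at least 0.992 for each of the other arrays within their genotype, so each SOX gene is given with and without it.

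None of the 9 chosen SOX genes that could be tested passed the threshold of a limma adjusted p under 0.05. Outside the chosen set, Sox10 was called lower (difference -1.04, limma adjusted p = 0.00607). Across all 19377 features tested, 5.48% were called. Unadjusted p-values under 0.05 were found for 4 of the 9 (Sox2, Sox4, Sox6 and Sox13), while 25.2% of all features reached that level. The 4 MUT values lay apart from the 4 WT values in 2 of the 9, higher for Sox2 and lower for Sox6, against 25.6% of all features. The share of the 9 whose groups lay apart was thus no higher than the background. The differences had a median of 0.10 over the 9 genes and of 0.01 over all features, with 6 genes higher and 3 lower in MUT, none of them called, where 2.22% of all features were called higher and 3.26% lower. Without MUT replicate 2 the median was 0.13 over the 9 genes and -0.02 over all features, and Sox2 was the single gene of the 9 called, where 17.2% of all features were called. An exact two-sided permutation test, whose smallest possible p with 4 against 4 arrays is 0.0286, gave that smallest p for Sox2 and Sox6 and an adjusted p of at least 0.129 for each of the 9.

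**Figure D1:**
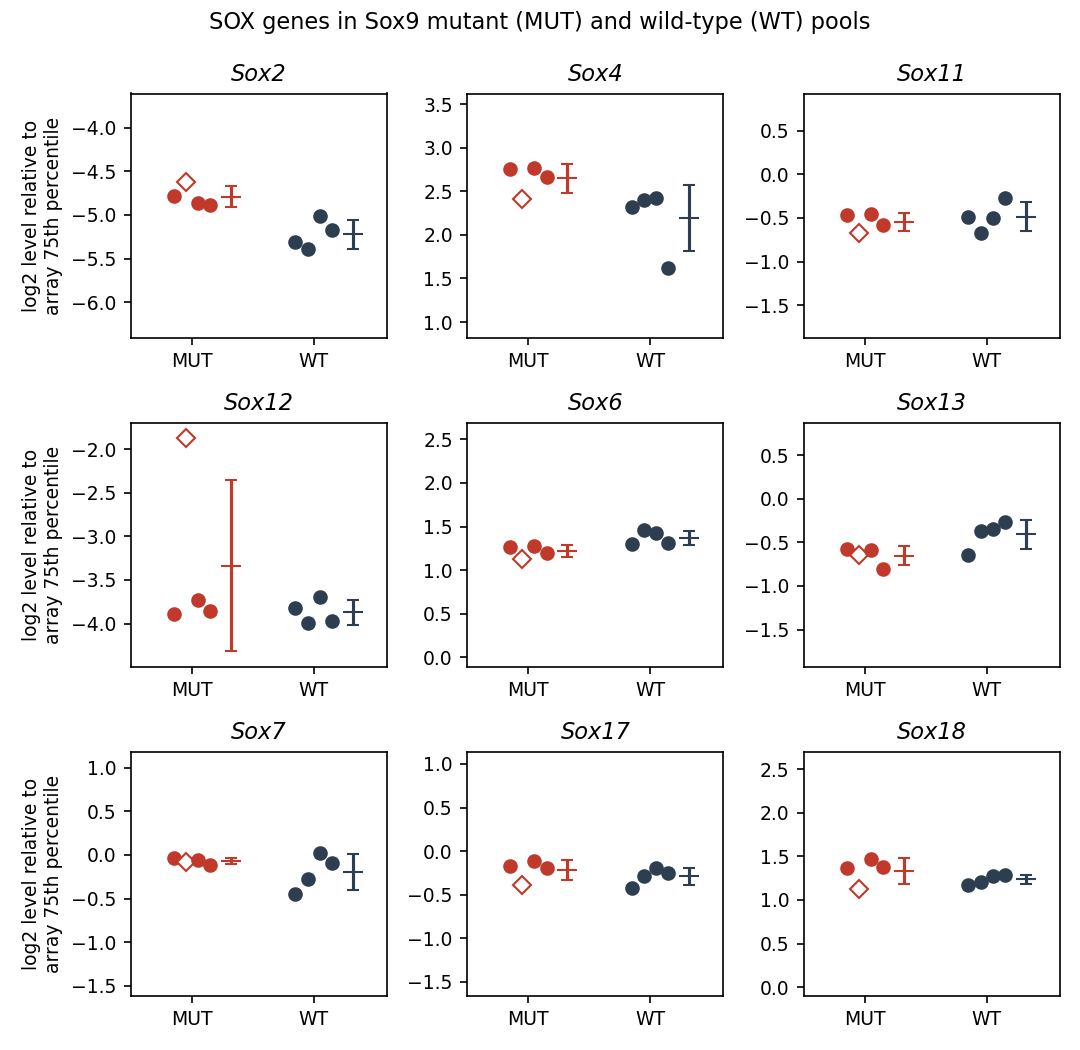
Level of the main probe of each tested SOX gene on each array (vertical axis, log2, relative to the array 75th percentile; every panel spans the same number of log2 units). Points are pools, the open diamond is MUT replicate 2, and bars to the right of the points are the mean ± SD of 4 pools. Sox2 is higher and Sox6 lower in MUT without overlap, WT replicate 4 lies apart for Sox4, and MUT replicate 2 lies apart for Sox12.

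Sox2, a regulator of foregut and stomach progenitors, was dim and higher in MUT on each array. Its single probe (A_52_P307739, mm8 chr3:34843400-34843459) read -4.78, -4.62, -4.87 and -4.89 in MUT, against -5.31, -5.39, -5.01 and -5.17 in WT. The lowest MUT pool lay above the highest WT pool, on a probe that was well above background on all 8 arrays. The difference was 0.43 (SE 0.104, 95% interval 0.19 to 0.68), or 1.35-fold, with a limma adjusted p of 0.0591. Without MUT replicate 2 it was 0.38 (SE 0.0973) with an adjusted p of 0.0407. The direction depended on how a signal this dim was processed: the difference was -0.53 after quantile normalization, -0.43 after normexp background correction and -0.08 in the deposited series table, none of them called. Sox2 is therefore reported as not passing the test, with a sign that was not the same under all settings.

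The 20 foregut and stomach genes set beside Sox2 held 14 that could be tested, of which 2 were called higher and 1 lower in MUT. Across all features 2.22% were called higher and 3.26% lower. Atp4a, a subunit of the gastric proton pump, averaged -1.62 ± 0.28 in MUT and -2.57 ± 0.10 in WT (SD, n = 4 each), a difference of 0.94 (limma adjusted p = 0.0143). It was 0.80 without MUT replicate 2 (adjusted p = 0.00122), and the call was lost with median scaling (0.56) and normexp correction (0.44). Barx1, a homeobox gene of stomach mesenchyme, was higher by 0.28 (limma adjusted p = 0.0325), but its difference was -0.11 under median scaling, as the median of all features moved to -0.38. Klf5, a factor of gut epithelium, fell by 0.41 (limma adjusted p = 0.0461). The list had a median difference of 0.31, of -0.07 without MUT replicate 2 and of -0.32 after quantile normalization, against medians over all features of 0.01, -0.02 and -0.06. Gkn1, Gkn2, Pgc, Pax9, Nkx2-1 and Irx3, which mark stomach and anterior foregut, did not reach the filter on dim probes. Sox2 is also used by neural crest cells and glia. Of 15 Schwann cell and glial genes tested 6 were called lower and none higher in MUT, where 3.26% of all features were called lower. Among the 6 were Sox10 (difference -1.04, limma adjusted p = 0.00607), S100b, Gfra3 and Ngfr. A second, dimmer Sox10 probe (A_52_P192625) differed by -0.29 (limma adjusted p = 0.769, and 0.00419 without MUT replicate 2). The summed linear level of the glial list ranged from 23.8 to 32.4 in MUT, or from 28.7 without replicate 2, and from 36.0 to 41.5 in WT. Of 20 neuronal genes 0 were called by limma, 6 had an unadjusted p under 0.05, where 25.2% of all features did, and the list median was -0.51. The smallest p-values there were those of Elavl4, a neuronal RNA-binding protein gene (difference -1.04, limma adjusted p = 0.0502), and Stmn2 (-0.68, adjusted p = 0.128). Elavl4 was called without MUT replicate 2 (-0.89, limma adjusted p = 0.0315). The part of these cells in the Sox2 value was not tested.

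Sox4, the SOXC activator of the endocrine lineage, was higher on average in MUT without passing the test. Its probe (A_51_P105178, mm8 chr13:28959662-28959721) read 2.76, 2.41, 2.77 and 2.66 in MUT, against 2.32, 2.40, 2.42 and 1.63 in WT. WT replicate 4 lay far below the other 3 WT pools, and the lowest MUT pool, replicate 2, fell within the WT range. The difference was 0.46 (SE 0.193, 95% interval 0.01 to 0.91; limma adjusted p = 0.193). It was 0.54 without MUT replicate 2 (adjusted p = 0.102) and 0.27 without WT replicate 4 (adjusted p = 0.218). Sox4 thus kept a positive difference with either pool left out, and its size moved by more than 1.5 times with WT replicate 4.

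Sox12, the third SOXC gene, showed a difference that came from a single array. Its probe (A_51_P322450, mm8 chr2:152088861-152088920) read -3.89, -1.87, -3.73 and -3.86 in MUT, against -3.82, -3.99, -3.69 and -3.98 in WT. MUT replicate 2 was the only value outside the WT range on the upper side. The difference was 0.53 (SE 0.449, limma adjusted p = 0.469) with that array and 0.04 (SE 0.0906, 95% interval -0.17 to 0.26, adjusted p = 0.763) without it.

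Sox11, a SOXC gene that often acts redundantly with Sox4, was measured by 6 probes that did not move alike. Its brightest probe (A_52_P160955, mm8 chr12:27920944-27921003), the 3′-most of the 6 on this minus-strand gene, read -0.47, -0.67, -0.45 and -0.58 in MUT, against -0.49, -0.67, -0.50 and -0.27 in WT. The groups overlapped fully, with a difference of -0.06 (SE 0.0997, 95% interval -0.29 to 0.18; limma adjusted p = 0.727). The other probes in that 3′ stretch, A_51_P297434 and A_51_P283516, lie 522 and 3316 bases upstream of it and differed by 0.04 and -0.14, again with overlap.

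The 3 probes nearer the 5′ end of Sox11, 5842 to 7409 bases from the 3′-most one, were all higher in MUT without overlap. They belong to a single gene, and groups lay apart in 25.6% of all features. The probe A_52_P178018 (mm8 chr12:27926786-27926845) read -1.08, -0.87, -1.11 and -1.19 in MUT, against -1.74, -1.63, -1.53 and -1.54 in WT. Its difference of 0.55 (SE 0.0922), or 1.46-fold, was called with a limma adjusted p of 0.0250 over all 29446 probes that passed the filter, of which 3.91% were called. It was the single one called of the 19 probes of the chosen SOX genes that passed the filter. The call held without MUT replicate 2 (0.48, adjusted p = 0.00798) and was lost when any of the other 7 arrays was left out (adjusted p 0.0512 to 0.0847), with differences that stayed positive. It was also lost under median scaling, with normexp correction and with no filter on dim probes.

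The neighbouring probe A_52_P114703, 210 bases further 5′, read -0.96, -0.94, -1.04 and -1.16 in MUT, against -1.35, -1.42, -1.30 and -1.32 in WT. Its difference of 0.32 had a limma adjusted p of 0.0560, and of 0.0284 without MUT replicate 2, but was -0.06 under median scaling of the arrays. The 5′-most probe A_52_P608516 read -1.37, -0.93, -1.29 and -1.45 in MUT, against -1.83, -1.88, -1.69 and -2.43 in WT, a difference of 0.69 (limma adjusted p = 0.0890, and 0.0597 without MUT replicate 2). Without MUT replicate 2, 3 of the 19 SOX probes were called, all higher in MUT, where 15.8% of all probes were called and 7.55% called higher. These 3 were the probes A_52_P178018 and A_52_P114703 of Sox11 and the Sox2 probe.

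The level of the 5′-most Sox11 probe minus that of the 3′-most one was -0.90, -0.26, -0.84 and -0.87 on the MUT arrays, against -1.34, -1.20, -1.19 and -2.16 on the WT arrays. The groups did not overlap, and the difference of 0.75 was 0.60 without MUT replicate 2. This shift was not particular to Sox11. Over 6792 genes with at least 2 probes the same difference had a median of 0.18, or 0.08 without MUT replicate 2, and was above 0 in 70.6% of them, or 65.3% without that array. Groups lay apart with MUT higher in 18.1% of these genes and with MUT lower in 5.17%. Without MUT replicate 2, the Sox11 difference stood at the 94.3 percentile of these genes. The part of this shift, seen across the array, in the Sox11 values was not tested.

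**Figure D2:**
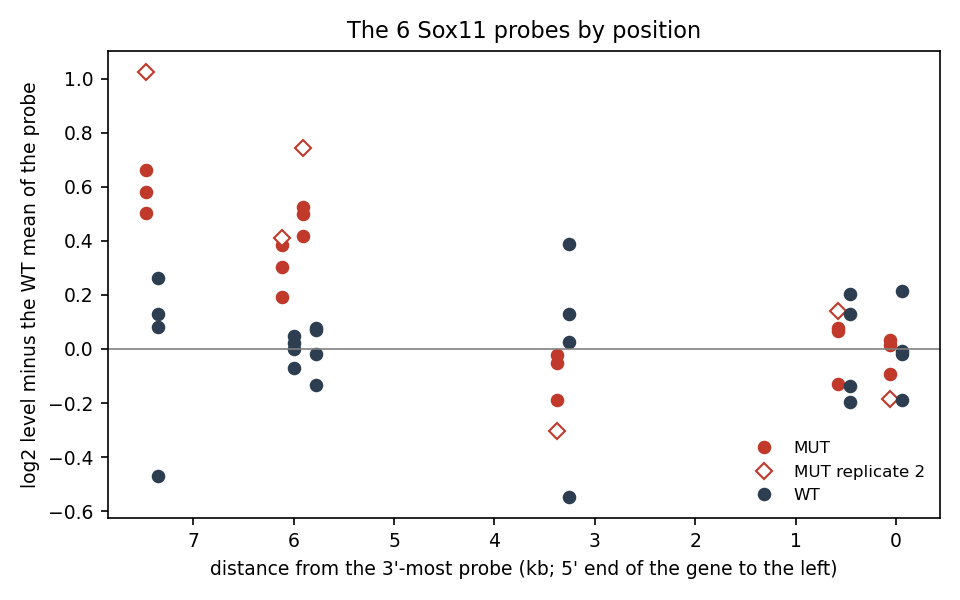
Level of each of the 6 Sox11 probes on each array minus the WT mean of that probe (vertical axis, log2) against its distance in kb from the 3′-most probe (horizontal axis, 5′ to the left). MUT points, with MUT replicate 2 as an open diamond, are drawn left of WT points; they lie above all WT points at the 3 probes more than 5 kb from the 3′-most one, and overlap them at the other 3.

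Genes known to work downstream of the SOXC group or with it showed no call. Of 19 such genes tested 0 passed in either direction (limma), 6 had an unadjusted p under 0.05, a share near the 25.2% of all features, and the median difference was 0.01. The smallest p-values belonged to Mex3a, an RNA-binding protein gene, with a difference of 0.31 (limma adjusted p = 0.0584), and Vash2, with 0.30 (adjusted p = 0.124). Tead2, a SOX4 and SOX11 target, differed by 0.01. Tubb3, a neuronal tubulin gene and SOX11 target, differed by -0.88 without passing (limma adjusted p = 0.162). The endocrine factors, the pancreatic lineage in which Sox4 acts, were lower: 12 of 20 were called lower and none higher, where 3.26% of all features were called lower, with a median difference of -0.86. The count was 15 without MUT replicate 2, 8 with quantile normalization, 4 with normexp and 2 with median scaling, while the list median was -0.83 with quantile normalization and -1.24 with median scaling. Neurog3, the master gene of that lineage, fell by 1.88 (SE 0.149, limma adjusted p = 0.00242), and Tox3, Insm1 and Fev fell by 0.92, 1.65 and 1.13. Insm1 and Fev were not called after quantile normalization (limma adjusted p = 0.126 and 0.154). Sox4 and Sox11 were called in neither direction at their main probes in the same pools.

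Sox6, a SOXD partner of SOX9 in cartilage and a repressor of embryonic globin genes in mouse red cells, was lower in MUT by a small margin. Its brightest probe (A_52_P282171, mm8 chr7:115266015-115266074) read 1.26, 1.13, 1.28 and 1.19 in MUT, against 1.30, 1.46, 1.42 and 1.31 in WT. The highest MUT pool lay just under the lowest WT pool. The difference was -0.16 (SE 0.0668; limma adjusted p = 0.197), and -0.13 without MUT replicate 2 (adjusted p = 0.189).

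A second Sox6 probe, A_52_P475356, 2962 bases further 3′, read -0.96, -1.01, -0.88 and -0.93 in MUT, against -0.78, -0.73, -0.74 and -0.83 in WT. It differed by -0.17 without overlap (limma adjusted p = 0.152, and 0.103 without MUT replicate 2). Both brighter Sox6 probes were thus lower in each MUT pool than in each WT pool, and neither passed the test. The dimmer probes had positive differences that rested in whole or in part on MUT replicate 2. A_52_P394652 differed by 0.44 with MUT replicate 2 and by 0.01 without it, and A_52_P25089 by 0.82 and 0.20. The groups of A_52_P25089 still did not overlap when that array was left out (limma adjusted p = 0.0837). The fifth Sox6 probe, A_52_P284996, was well above background on no WT array and on 1 of 4 MUT arrays, replicate 2.

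Sox13, a SOXD gene also known as an autoantigen of islets, was lower in MUT with overlap. Its probe (A_51_P520917, mm8 chr1:135209903-135209962) read -0.57, -0.64, -0.59 and -0.81 in MUT, against -0.64, -0.37, -0.35 and -0.26 in WT. WT replicate 1 lay inside the MUT range and the other 3 WT pools above it. The difference was -0.25 (SE 0.101, 95% interval -0.48 to -0.01; limma adjusted p = 0.181) and was also -0.25 without MUT replicate 2 (adjusted p = 0.146). Its sign was negative under each of the 17 alternatives listed for these results, and it was called under none.

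Sox5, the closest relative of Sox6, could not be tested. None of its 3 probes was well above background on a WT array. On the MUT side 2 of the 3 were so on a single array, replicate 2, and the third on none. A_51_P500318 read -7.14, -1.34, -6.96 and -7.82 in MUT, against -7.25, -8.09, -7.42 and -7.03 in WT. The difference was 1.63 for that probe and 2.24 for A_52_P352356, and 0.14 and 0.85 without MUT replicate 2. No bound on the fold is drawn, since the other MUT values of these probes were not well above background either.

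Of the cartilage partners and targets of the SOXD group and SOX9, 17 could be tested, with 3 called lower and 1 higher in MUT. Among all features 3.26% were called lower and 2.22% higher. Col9a3, a collagen IX chain, fell by 2.06 (SE 0.312, limma adjusted p = 0.0143), and Col9a2 and Col27a1 fell by 0.41 and 0.40. Col9a2 and Col27a1 were not called with median scaling, quantile normalization or normexp, but were called in the deposited series table. The Col9a3 call was lost with normexp (-1.89, limma adjusted p = 0.0558). Quantile normalization left 1 call on this list. Nkx3-2, a homeobox gene of cartilage and of pancreatic mesenchyme, was higher by 0.58 (limma adjusted p = 0.0114) and by 0.59 without MUT replicate 2. It was not called with median scaling (0.20), quantile normalization (0.32), normexp (0.34) or in the deposited series table (0.43). The list median was 0.00, and -0.24 without MUT replicate 2. For the globin side of Sox6, 13 erythroid genes were tested and 2 were called higher: Hbb-y and Hba-x, embryonic globin genes, by 1.68 and 1.43 (limma adjusted p = 0.0439 and 0.0485). Both calls were lost with quantile normalization (limma adjusted p = 0.0586 and 0.0639), normexp and median scaling, at differences of at least 1.29 and 1.04. The summed level of the erythroid list ranged from 6.23 to 14.8 in MUT, or to 9.54 without replicate 2, against 4.19 to 5.78 in WT. Klf1, an erythroid transcription factor gene, was not called, and the part of blood cells in these values was not tested.

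The SOXF genes, which mark endothelium, differed by at most 0.13 at their main probes, and each of these differences turned negative, between -0.26 and -0.32, under median scaling, where the median of all features was -0.38. Sox18, known for lymphatic vessels, read 1.37, 1.12, 1.46 and 1.38 in MUT, against 1.18, 1.21, 1.27 and 1.29 in WT (A_51_P472274, mm8 chr2:181599490-181599549). MUT replicate 2 was the lowest of all 8 and the other 3 MUT pools the highest. The difference was 0.10 (SE 0.0842, 95% interval -0.10 to 0.30; limma adjusted p = 0.473), and 0.17 without that array (SE 0.0551, interval 0.04 to 0.30; adjusted p = 0.0781).

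Sox17, which also marks endoderm of the future bile duct, read -0.17, -0.39, -0.11 and -0.19 in MUT, against -0.42, -0.29, -0.19 and -0.25 in WT (A_52_P279368, mm8 chr1:4481503-4481562). The groups overlapped, with a difference of 0.07 (SE 0.0836, 95% interval -0.12 to 0.27; limma adjusted p = 0.597), and of 0.13 without MUT replicate 2 (adjusted p = 0.220). Its second probe A_51_P273667, 387 bases further 5′, differed by 0.15 (limma adjusted p = 0.297), and by 0.17 without that array. The other Sox17 probes, one of them on the opposite strand, did not reach the filter.

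Sox7 read -0.03, -0.08, -0.05 and -0.12 in MUT, against -0.45, -0.28, 0.02 and -0.09 in WT (A_51_P476018, mm8 chr14:62904692-62904751). The MUT pools lay inside the wider WT range, with a difference of 0.13 (SE 0.106, 95% interval -0.12 to 0.38; limma adjusted p = 0.465). The dimmer Sox7 probe A_52_P644005 differed by 0.89 with MUT replicate 2 and by 0.26 without it, called in neither case.

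Endothelial genes as a group stayed close to the wild type as well. Of 20 tested 1 was called, where 5.48% of all features were called. It was Esm1, a tip cell gene, which fell by 0.53 (limma adjusted p = 0.0370), and the list median was -0.01. Their summed level ranged from 69.0 to 86.5 in MUT, or from 80.6 without replicate 2, against 76.8 to 88.9 in WT. Pecam1, Cdh5 and Kdr differed by 0.08, -0.05 and 0.03. Among 21 vascular signalling partners of the SOXF group Flt4, the receptor of lymphatic growth factors, was the single call, higher by 0.47 (SE 0.0960, limma adjusted p = 0.0370), with a list median of 0.03. The Flt4 call depended on the processing: its difference was 0.08 with median scaling, 0.01 with quantile normalization, 0.01 with normexp and 0.21 in the deposited series table, called in none of these, and 0.48 without MUT replicate 2 (limma adjusted p = 0.0229). SOXF proteins also restrain WNT signalling. Of 18 WNT effector genes tested Ccnd1, which encodes cyclin D1, was the single call, where 5.48% of all features were called. It fell by 0.50 (limma adjusted p = 0.0228). The call held with quantile normalization (-0.41, limma adjusted p = 0.043). It was lost with median scaling (-0.88, limma adjusted p = 0.479) and normexp (-0.41, limma adjusted p = 0.295). Ccnd1 had no value in the deposited series table.

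**Figure D3:**
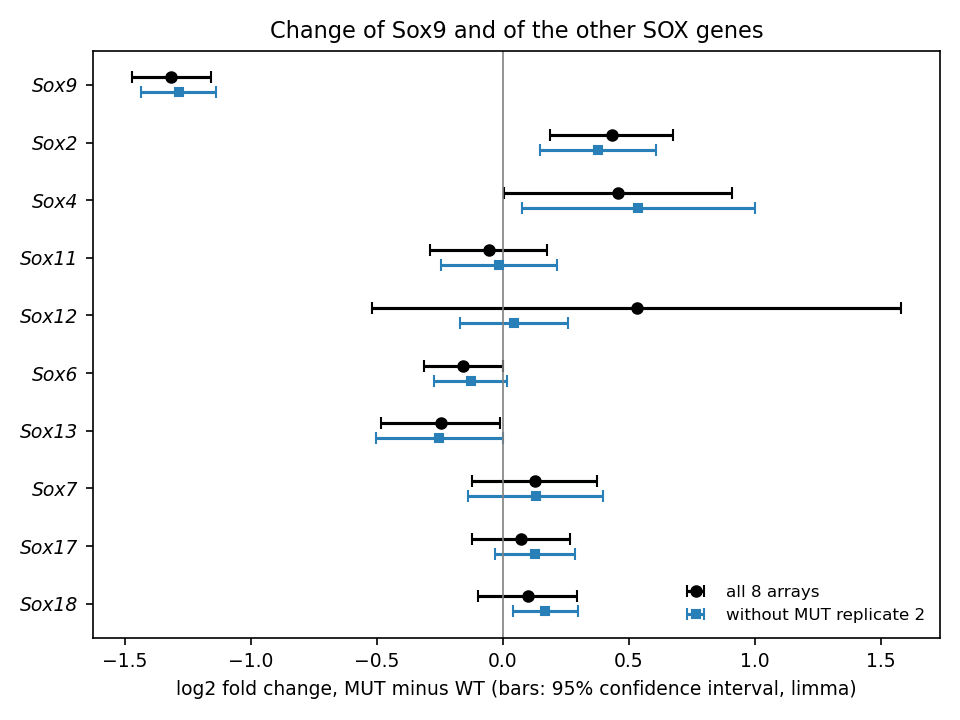
Difference MUT minus WT of the main probe of Sox9 and of the 9 tested SOX genes (horizontal axis, log2), with limma's 95% confidence interval, from all 8 arrays (circles) and without MUT replicate 2 (squares). Sox9 lies at -1.32, and the other genes lie between -0.25 and 0.53, with Sox12 moving to 0.04 when that array is left out.

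The remaining lists place these genes among the cell types of the organ. Of 15 acinar genes 0 were called by limma, where 5.48% of all features were called. With a list this short, 0 calls do not set it apart from that share. An unadjusted p under 0.05 was found for 2 of the 15, where 25.2% of all features reached that level. Bhlha15 and Ptf1a, acinar transcription factors, had the smallest p-values, with differences of -0.48 and -0.31 (limma adjusted p = 0.0969 and 0.195). Without MUT replicate 2 Bhlha15 was called lower (-0.34, limma adjusted p = 0.0206). Of 22 duct and trunk genes 2 were called higher, Hes1 and Onecut1, by 0.54 and 0.95, and 3 lower, Spp1, Cldn10 and Sox9 itself. Among all features 2.22% were called higher and 3.26% lower. Of 22 mesenchymal genes 3 were called higher and 1 lower in MUT. The summed level of this list ranged from 266 to 344 in MUT, or from 317 without replicate 2, against 328 to 393 in WT. Isl1, which fell by 0.87, is on both the mesenchymal and the endocrine list, and the genes called higher were Nkx3-2, Hoxb6 and Barx1, of which Hoxb6 and Barx1 were at -0.01 and -0.11 under median scaling. Among 7 further SOX genes with a tested probe, Sox9 and Sox10 were called lower and none higher. Sox3, Sox30 and Sry did not reach the filter. Without MUT replicate 2 more genes were called in several lists, as across the array, where 17.2% of all features were called. The counts were 2 higher and 6 lower on the cartilage list, 9 lower on the glial list and 15 lower on the endocrine list. They were 2 higher and 1 lower each on the SOXC, endothelial and erythroid lists, and 1 higher and 1 lower on the SOXF partner list. The duct list had 7 higher and 3 lower, and the mesenchymal list 4 higher and 2 lower. The acinar and neuronal lists had 1 lower each, and the further SOX genes 6 lower. With median scaling the calls were 2 on the endocrine list, 2 on the cartilage list, 1 on the glial list and 0 on each of the others. With normexp they were 4 on the endocrine list, 2 each on the glial and duct lists and among the further SOX genes, and 0 on each of the others.

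MUT replicate 2 departed from the other MUT pools mainly at dim SOX probes, with no strict order by level. The 11 probes with a level under -2 in MUT replicates 1, 3 and 4 were higher on replicate 2 by 0.22 to 5.97 on the log2 scale. The other 14 differed from those pools by -0.32 to 0.44. The Sox2 probe, although dim, had the smallest departure of the 11, while Sox5, Sox12 and the dim probes of Sox6, Sox7 and Sox17 had larger ones.

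**Figure D4:**
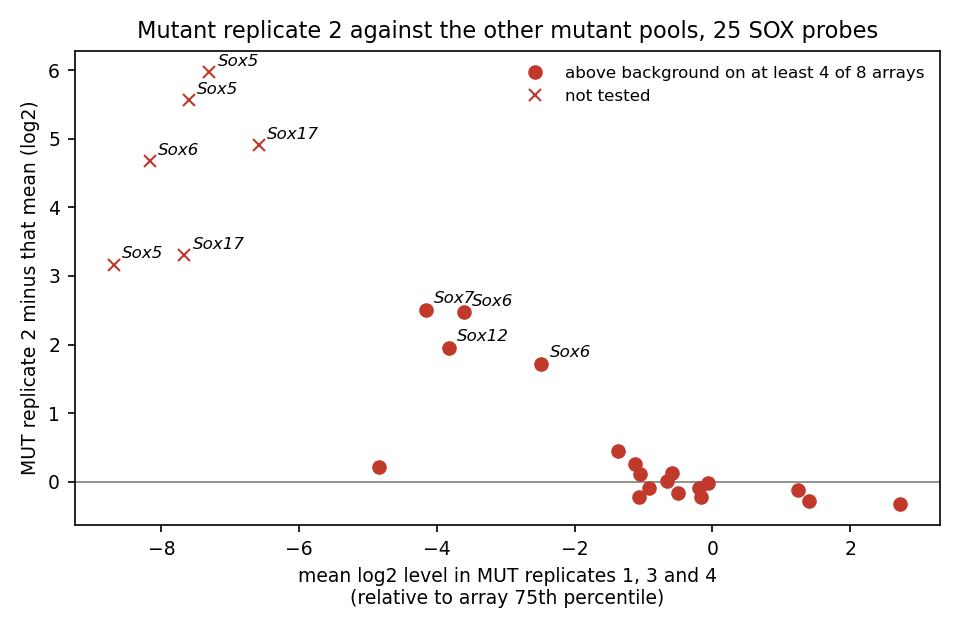
MUT replicate 2 minus the mean of MUT replicates 1, 3 and 4 (vertical axis, log2) against that mean level (horizontal axis, log2 relative to the array 75th percentile) for the 25 SOX probes. Circles passed the filter and crosses did not. Probes under -2 lie between 0.22 and 5.97, and brighter ones between -0.32 and 0.44.

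The genes whose levels varied most like a SOX gene from pool to pool, after removal of the genotype means and over the 7 arrays without MUT replicate 2, were named for the 4 genes with the smallest p. They are the highest of all named features and are given as a description, since the 7 pools share slides and scaling. For Sox2 they were Tex44, Chst3 and Skap1 (Pearson r 0.998, 0.994 and 0.989; Spearman rho 1, 1 and 0.964), and with all 8 arrays r was 0.752, 0.984 and 0.595. For Sox13 they were Rwdd2a, Cox6b1 and Fancg (r 0.997, 0.989 and 0.978; with 8 arrays 0.138, 0.864 and 0.938). For Sox4 they were Kmt2c and Kmt2a, histone methyltransferase genes, and Ccdc15 (r 0.997, 0.996 and 0.996; with 8 arrays 0.988, 0.995 and 0.489). Sox4's own variation within a genotype is mostly that of WT replicate 4. For Sox6 they were Polr2k, Rpusd4 and Nme4 (r 0.989, 0.979 and 0.974; with 8 arrays 0.749, 0.962 and 0.968). None of these 12 genes was itself called between the genotypes, where 5.48% of all features were called. Some of the genes most like Sox7 and Sox18 were called, so the absence of calls holds for the 4 SOX genes shown.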

How the data were processed

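RNA from 8 pools was measured on one-colour Agilent arrays (design 014868). Values in the scanner files as deposited are, per the file headers, an intensity in linear units made by Agilent Feature Extraction 9.5.3.1 (processed signal, background subtracted, not normalized between arrays). The deposited series table, also an intensity, served as an alternative. Control and outlier-flagged spots were dropped, and values were taken as log2 less the array's 75th percentile. Probes well above background on at least 4 of 8 arrays were kept (29446 probes). The probe with the highest mean stood for a gene, giving 19377 features. Coordinates are those of the files (mm8, NCBI36), and exon or UTR position was not assessed. Names were updated through RefSeq tables (GRCm38.p6).

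Features were fitted with limma 3.58.1 in R 4.3.3 (lmFit and eBayes, genotype as the only term, two-sided), with Benjamini-Hochberg adjustment over all features. The fit was tested on simulated data. A single-probe table was fitted the same way. Alternatives were other scalings, background correction, filters, probe averaging, the series table, array weights, a replicate block and leaving out each array. The members and lists were chosen with earlier results of these data known. The text names all 10 SOX genes and Sox9, up to 4 called genes per list by adjusted p (or the 2 with the smallest p), and for at most 4 SOX genes the 3 features most correlated with each. Tead2, Tubb3, Pecam1, Cdh5, Kdr and Klf1 were named after their values were seen. The number of arrays limits the precision. Labels give no more than pooled biological replicates.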

Additional observations from a re-analysis of the deposited data

Results flagged for a closer look

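Among 38 groups of 4 pools examined, a pool lay far from the other 3 in 5. Chance marks about 1 in 20 independent groups. These groups share the same arrays and some share a gene, so the count cannot be judged against that rate. For Sox4, WT replicate 4 stood at 1.63, against 2.32 to 2.42 in the other WT pools. The other 4 cases were all MUT replicate 2: Sox12 at -1.87, against -3.89 to -3.73 in the other MUT pools, Sox6 at -0.76 (A_52_P394652, others -2.53 to -2.45) and -1.14 (A_52_P25089, others -3.68 to -3.55), and Sox7 at -1.65 (A_52_P644005, others -4.33 to -4.01). These are dim probes, and the cause was not tested.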

How the results depend on the processing

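Sox13 and Sox4 kept their direction under all 17 alternatives and the 2 chosen after the data were seen (median and quantile scaling without MUT replicate 2). The count of called genes among the chosen SOX genes was 0. It became 1 (Sox2, adjusted p = 0.0486) when probes had to be well above background on all 8 arrays. It became 3 with array weights (Sox2, Sox4 and Sox18). All these calls were higher in MUT. The count ranged from 0 to 1 over the fits leaving out an array, as did the count called higher. Features called numbered 56 with median scaling, 80 with normexp, 419 without a filter, 2181 in the series table, 4748 with array weights, 360 to 3338 leaving out an array, and 3290 and 3511 with median and quantile scaling without MUT replicate 2. Sox9 was -1.70 under median scaling (adjusted p = 0.0928). That scaling moved the median of all features to -0.38, so differences under it are to be read against this shift. The median signal was 756 on MUT replicate 2 and 219 to 272 on the other arrays. The 75th percentile was 11.3 on MUT replicate 2 and 10.9 to 11.2 on the other arrays, on the log2 scale.

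Directions turned in these cases. With median scaling Sox7 was -0.26, Sox17 -0.32 (second probe A_51_P273667 -0.24), Sox18 -0.29, and the Sox11 probes A_51_P297434 and A_52_P114703 -0.35 and -0.064. Sox2 was -0.53 with quantile scaling, -0.43 with normexp and -0.080 in the series table. Sox12 was -0.13 with normexp. With the mean of all probes Sox11 was 0.23 and Sox6 0.23. With array weights Sox11 was 0.045 and the Sox6 probe A_52_P394652 -0.011, and leaving out an array put Sox11 between -0.12 and 0.015. The Sox11 probe A_51_P297434 was -0.0059 with quantile scaling, -0.026 with normexp, -0.018 in the series table, -0.026 to 0.11 leaving out an array, and -0.029 and -0.0028 with median and quantile scaling without MUT replicate 2. Under those settings the Sox6 probe A_52_P394652 was -0.026 and -0.036, and Sox12 was -0.0026 with quantile scaling without MUT replicate 2. The cause was not tested, apart from the shift given for median scaling.

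Replicate numbers are shared by both groups, but deviations of same-numbered pools correlated by -0.02 to 0.13, so the numbers were not taken as pairs. With the replicate block 116 features and none of the 9 SOX genes were called, Sox2 had an adjusted p of 0.172, and the Sox11 probe A_52_P178018 lost its call (0.125). Signal over background limits Sox5 and the dim probes.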
